A study of Homo sapiens with 6 samples.

Results

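The transcripts of 7 enzymes that make heme were followed in NB4 cells given tanshinone I (Tan I) or its solvent. The enzymes were ALAS1, ALAD, UROS, UROD, CPOX, PPOX and FECH, chosen by name for their place in the pathway. They are 7 of the 18625 genes in the table of this series, and all 7 passed the filter on low values. NB4 is an established human cell line from acute promyelocytic leukemia that carries the PML-RARA fusion, and Tan I is a diterpenoid of the medicinal plant Salvia miltiorrhiza that the study examined as an inhibitor of the histone methyltransferase EZH2. Both groups were grown in RPMI medium with serum, and RNA was sequenced after 3 days with DMSO alone (3 libraries, DMSO 1 to 3) or with Tan I at 10 μM (3 libraries, Tan I 1 to 3). The cells are a single line, and nothing in the labels or methods says that the libraries of a group came from separate cultures, so that p-values measure only the spread between these samples, which may be technical.

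Heme is an iron-bearing ring that hemoglobin, the cytochromes, peroxidases and catalase need for their function. Its synthesis opens in the mitochondria, where glycine and succinyl-CoA are joined by aminolevulinic acid synthase, continues in the cytosol, and returns to the mitochondria, where iron is put into the finished porphyrin. The first enzyme has a housekeeping form, ALAS1, which free heme holds down, and an erythroid form, ALAS2, made in red cell precursors. In promyelocytes a large consumer of heme is myeloperoxidase (MPO), the enzyme stored in the primary granules. A further step of the pathway was not analysed here.

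The libraries held 25356503 to 31679138 reads on listed genes in DMSO and 21502760 to 24298627 in Tan I. The main axis of variation among libraries (the first principal component over the tested genes) carried 70.8% of the variance and did not follow the treatment: in the order of its scores the libraries stood as DMSO 1, Tan I 1, DMSO 3, Tan I 2, DMSO 2 and Tan I 3. Of 7 promyelocyte markers 6 had a row, with MPO by far the most abundant, and their summed normalized counts ran from 71171 to 77317 in DMSO and from 42027 to 50381 in Tan I. Of 14 erythroid markers 4 had a row, and these summed to 83.6 to 102 in DMSO and 65.3 to 88.9 in Tan I, a low level beside the enzymes.

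The genes lie on 5 chromosomes of GRCh38, in the coordinates of GENCODE release 44. ALAS1 is at chr3:52198086-52214327 on the plus strand with 12 exons in its canonical transcript. ALAD is at chr9:113386312-113401290 on the minus strand with 12 exons, and UROS is at chr10:125784980-125823258 on the minus strand with 10 exons. UROD is at chr1:45010950-45015575 on the plus strand with 10 exons, and its region overlaps the antisense gene HECTD3. CPOX is at chr3:98579446-98593648 on the minus strand with 7 exons, and a further protein-coding gene model overlaps it on the same strand. PPOX is at chr1:161166056-161178013 on the plus strand with 13 exons, and B4GALT3 lies antisense to part of it. FECH is at chr18:57544377-57586732 on the minus strand with 11 exons. Whether the reads were counted by strand is not given in the sources used here, so that reads of UROD and PPOX cannot be told apart from those of their antisense neighbors where the genes overlap. For CPOX, the overlapping gene model is on the same strand, so that counting by strand would not separate them. How reads in such overlaps were counted is not given either.

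Promoter windows from RefSeq (GRCh38.p14, 250 bases before to 50 after a gene's start) were matched for 6 of the 7 enzymes, with 8 windows in all, and none was matched for UROS. Short motifs of factors tied to heme, iron and drug response were searched on both strands. The windows of ALAS1 (chr3:52197833-52198132, plus strand), CPOX (chr3:98593562-98593861, minus strand) and FECH (chr18:57586653-57586952, minus strand) are printed because they stand for the first enzyme, a middle enzyme and the last one, and each holds a different motif. Capitals mark TGCGCA, a repeat unit of the binding site of nuclear respiratory factor NRF1, in ALAS1, GATAA, the core read by GATA factors, in CPOX, and TGACNNNGC, the core of the antioxidant response element, in FECH.
ALAS1: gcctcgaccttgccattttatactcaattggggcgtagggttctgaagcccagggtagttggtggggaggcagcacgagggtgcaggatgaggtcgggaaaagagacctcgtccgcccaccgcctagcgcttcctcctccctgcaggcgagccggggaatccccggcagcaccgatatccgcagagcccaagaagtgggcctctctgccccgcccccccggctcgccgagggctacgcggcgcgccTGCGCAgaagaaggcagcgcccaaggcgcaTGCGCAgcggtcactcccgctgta
CPOX: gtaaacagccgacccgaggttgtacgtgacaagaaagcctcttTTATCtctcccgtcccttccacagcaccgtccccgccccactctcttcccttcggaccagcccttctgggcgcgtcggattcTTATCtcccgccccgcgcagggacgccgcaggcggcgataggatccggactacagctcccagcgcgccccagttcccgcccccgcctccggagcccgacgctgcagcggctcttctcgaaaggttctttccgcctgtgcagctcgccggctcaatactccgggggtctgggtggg
FECH: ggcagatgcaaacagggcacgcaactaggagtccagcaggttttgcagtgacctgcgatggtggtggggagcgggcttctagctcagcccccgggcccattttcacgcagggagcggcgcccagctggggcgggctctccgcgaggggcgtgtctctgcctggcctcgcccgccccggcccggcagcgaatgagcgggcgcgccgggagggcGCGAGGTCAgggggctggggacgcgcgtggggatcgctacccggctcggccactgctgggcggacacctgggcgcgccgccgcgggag
TGCGCA occurred in 1 of the 8 windows and in 8.24% of 35116 promoters of this length. GATAA occurred in 2 of 8 windows against 22.7% of promoters, TGACNNNGC in 1 of 8 against 13.3%, and the core GCGTG of the aryl hydrocarbon receptor in 5 of 8 against 36.5%. The 5 windows belong to ALAD, PPOX and FECH only: both windows of ALAD overlap, as do both of PPOX, and each pair shares a match that is counted in both. The E-box CACGTG was in 0 of 8 windows and in 7.26% of promoters. These matches describe letters only, and no binding was measured in this series.

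The comparison of Tan I with DMSO asked whether the transcripts of the pathway differed after 3 days with the compound. None of the 7 enzymes passed the test in either direction. Differences were small in both directions, from -0.15 for ALAD to 0.10 for UROD on the log2 scale, and the 3 Tan I values overlapped the 3 DMSO values for every enzyme. Values are given as normalized counts, which are reads divided by the size factor of the library, and folds are differences of log2(normalized count + 1) from limma, in which a fold of a low gene is understated.

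ALAS1, the housekeeping form of the first and rate-limiting enzyme, was at 2143, 2610.2 and 2168 normalized counts in DMSO and at 2139.6, 1987 and 2507 in Tan I. The highest value was a DMSO library and the next was a Tan I library, and the remaining 4 lay close together. The means were 2307 ± 263 and 2211 ± 268 (SD, n = 3 each), with a log2 fold change of -0.06 (SE 0.14), and the 95% confidence interval of the fold ran from 0.766 to 1.20.

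ALAD, the cytosolic enzyme that condenses aminolevulinic acid into the first pyrrole, was at 1860.2, 1694 and 2039 in DMSO and at 1791, 1712 and 1522 in Tan I. Its lowest value was in Tan I and its highest in DMSO, with the other 4 values interleaved. The means were 1864 ± 172 and 1675 ± 138 (SD, n = 3 each), which gave the largest difference among the enzymes with lower means in Tan I, -0.15 on the log2 scale (SE 0.12), and a fold between 0.736 and 1.10 at 95% confidence.

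UROS, which closes the ring into uroporphyrinogen, was at 1005, 1216 and 1061 normalized counts in DMSO and at 916, 1000.2 and 1188 in Tan I. Both lowest values were Tan I libraries, yet the third Tan I library lay above 2 of the DMSO libraries. The log2 fold change was -0.08 (SE 0.14).

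UROD, the decarboxylase that makes coproporphyrinogen, was at 504, 828 and 549 in DMSO and at 516, 614 and 892 in Tan I. It was the most variable of the enzymes: DMSO 2 and Tan I 3 stood high and the other 4 libraries low, in both groups. The means were 627 ± 176 and 674 ± 195 (SD, n = 3 each), and its log2 fold change of 0.10 (SE 0.26) was the only positive one. The interval of its fold, from 0.705 to 1.63, was the widest.

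CPOX, which oxidizes coproporphyrinogen in the space between the mitochondrial membranes, was at 751, 863 and 720.4 in DMSO and at 657, 759.9 and 851 in Tan I. One library in each group was high, and the groups overlapped over most of their range. The log2 fold change was -0.05 (SE 0.14).

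PPOX, which forms protoporphyrin, was at 794, 752 and 800.1 in DMSO and at 760.4, 764 and 805 in Tan I. All 6 values lay within a few percent of each other. The means of 782 ± 25.9 and 777 ± 25.0 (SD, n = 3 each) differed by -0.01 on the log2 scale (SE 0.11), with a fold between 0.836 and 1.18 at 95% confidence.

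FECH, the ferrochelatase that inserts iron, was at 405, 521 and 439.9 in DMSO and at 405, 426 and 444 in Tan I. The lowest values of both groups were the same to within 1 count, and DMSO 2 alone stood above the rest. The log2 fold change was -0.09 (SE 0.14), and the fold lay between 0.747 and 1.18 at 95% confidence.

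**Figure D1:**
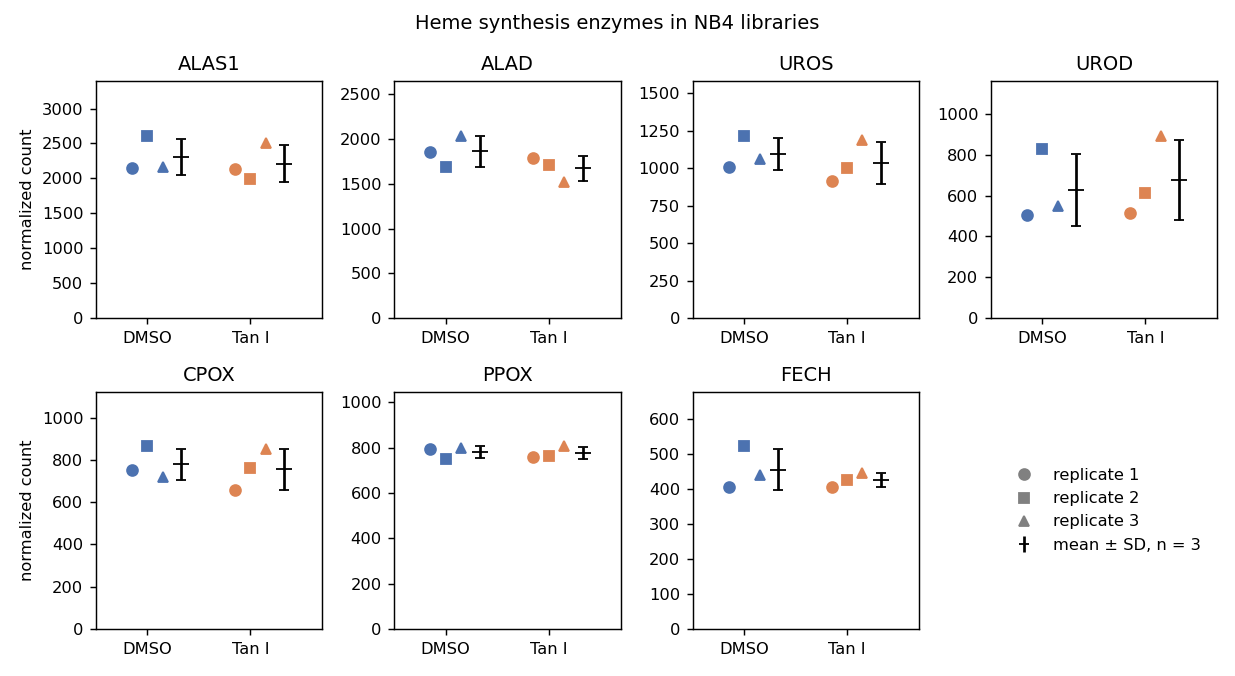
Normalized count of each heme synthesis enzyme (vertical axes, starting at 0) in the 3 DMSO and the 3 Tan I libraries, with the mean and SD beside the points and the replicate number as the marker shape. The groups overlap for all 7 enzymes, UROD spreads the most and PPOX the least.

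In limma's test over 16887 genes, 0 of the 7 enzymes were called at an unadjusted p of at most 0.05 with a log2 fold change of at least 0.25 in size, against 408 of all genes (2.42%). In the single directions, 0 enzymes were called higher and 0 lower, against 223 genes (1.32%) and 185 genes (1.1%), a split that became 188 higher of 438 when each library was rescaled to the same total. After Benjamini-Hochberg adjustment limma called 0 enzymes and 0 genes (0%). An unadjusted p under 0.05 was found for 410 genes, none of them an enzyme. That is fewer than a threshold of 0.05 would give over 16887 genes without any difference. The quasi-likelihood test of edgeR and the Wald test of DESeq2, run on the recovered reads, also called 0 enzymes. No enzyme had 3 Tan I values all above or all below the DMSO values, an arrangement found in 7.89% of all genes. With 7 genes, 0 calls are near what these shares would give. Unadjusted p-values of the enzymes in limma ran from 0.248 for ALAD to 0.93 for PPOX, and the exact two-sided permutation test, whose smallest possible p is 0.1 with 3 libraries against 3, gave 0.3 to 1.0.

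The log2 fold change was negative for 6 of the 7 enzymes, and for 50.3% of all genes tested. The signs depended on single libraries: without DMSO 2, ALAS1, CPOX and FECH had positive differences and the median over the enzymes was 0.0089. The median over the enzymes was -0.06, beside a median of all genes that lay within 0.01 of 0, and the median size was 0.08 for the enzymes and 0.14 for all genes. Among all genes the 5th and 95th percentiles were -0.57 and 0.39, which held every enzyme. A p above the threshold does not show that levels were equal: the confidence bounds of the enzymes ran from -0.50 to 0.71 on the log2 scale, both set by UROD. For the other 6 enzymes no bound reached 0.5 in size.

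The pattern shared by most of the enzymes was one across libraries and not across treatment. DMSO 2 and Tan I 3 were the highest 2 libraries for 5 of the 7 enzymes, ALAS1, UROS, UROD, CPOX and FECH. For FECH the second place was narrow, with 444 normalized counts in Tan I 3 against 439.9 in DMSO 3. DMSO 2 and Tan I 3 were the highest 2 for 26.5% of all genes tested and the lowest for 24.9%. They are the 2 libraries at one end of the first principal component. Enzymes that move together along it are not separate results, and the pattern is not particular to them. SHMT2 and HMOX2, from lists described below, were also highest in DMSO 2 and Tan I 3, while SLC25A37 was lowest in both. On the log2 scale, UROD stood 0.39 above its own mean in DMSO 2 and 0.49 above it in Tan I 3, and 0.33 below in DMSO 1. ALAD went the other way in Tan I 3, its lowest library at -0.21, and PPOX stayed within 0.05 of its mean throughout. With the score on that component as a covariate, all 7 differences were negative, from -0.15 for UROS to -0.01 for PPOX with a median of -0.11, and UROD turned from 0.10 to -0.06. None was called then. UROS reached an unadjusted p of 0.0349 in that limma fit, with an adjusted p of 0.285 and a difference under the fold threshold, and over all 17 alternatives its adjusted p ran from 0.285 to 1. What sets that component was not tested.

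**Figure D2:**
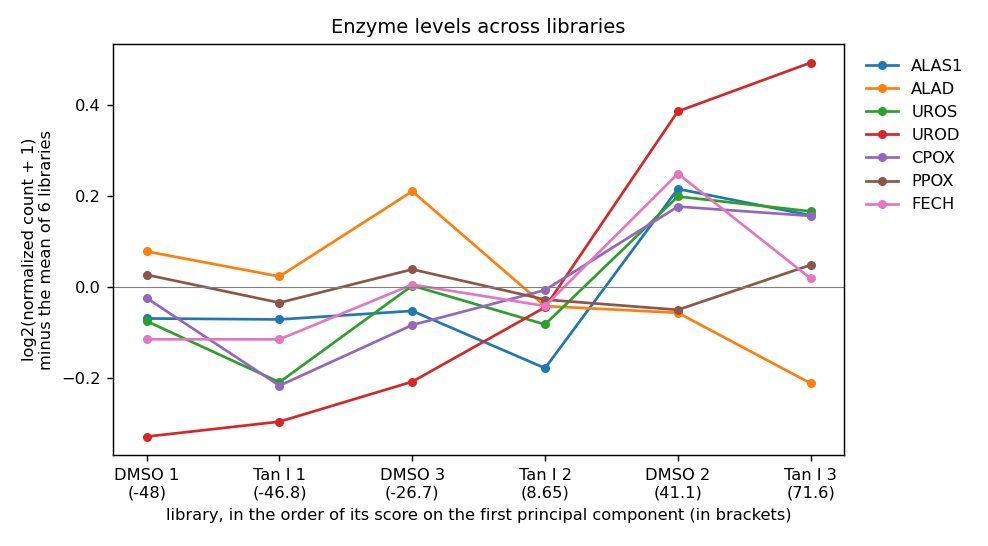
Log2(normalized count + 1) of each enzyme minus its mean over the 6 libraries (vertical axis), with libraries ordered along the horizontal axis by their score on the first principal component. Most enzymes sit highest in the 2 libraries at the right, DMSO 2 and Tan I 3, UROD climbs the most, PPOX is flat and ALAD falls to -0.21 in Tan I 3.

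All enzymes but UROD varied less than the median gene among those with a mean of at least 400. That set was not matched to the level of each enzyme. The coefficient of variation over the 6 libraries was 2.95% for PPOX, 9.80% for FECH, 9.84% for ALAD, 10.2% for CPOX, 10.8% for ALAS1, 10.9% for UROS and 25.8% for UROD. For the 7953 genes whose mean reached 400 the median was 13.8%, and 0.754% of them varied less than PPOX while 89.5% varied less than UROD. Counting of reads alone would give 3.55% for PPOX and 3.93% for UROD. The antisense neighbor of UROD, HECTD3, did not share this spread: its highest library was 1.21 times its lowest, against 1.77 times for UROD. B4GALT3, antisense to PPOX, had a ratio of 1.34 against 1.07 for PPOX.

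Levels of different enzymes were compared per kb of exon of the canonical transcript, as means of the DMSO libraries. ALAS1 was highest at 971 ± 111 normalized counts per kb (SD, n = 3), followed by UROS at 819 ± 81.6, ALAD at 596 ± 55.0, UROD at 526 ± 147, PPOX at 451 ± 15.0, CPOX at 287 ± 27.7 and FECH at 59.2 ± 7.76. The first enzyme of the pathway was thus 16.4 times the last in normalized counts per kb. Before division by length the DMSO means were 2307 and 455, so that this figure rests in part on the lengths, 2.375 kb for ALAS1 and 7.689 kb for FECH. Which FECH transcript the cells made was not measured. The DMSO ranges of neighbors in this order overlapped for ALAS1 and UROS, for ALAD and UROD and for UROD and PPOX. Within single libraries ALAS1 was above UROS in 3 of 3, ALAD above UROD in 2 of 3 and UROD above PPOX in 1 of 3, so that the place of UROD over PPOX rests on DMSO 2 alone, with 694 against 434 normalized counts per kb. The ranges did not overlap between UROS and ALAD, PPOX and CPOX, or CPOX and FECH. In Tan I the levels per kb were 931 for ALAS1, 775 for UROS, 565 for UROD, 535 for ALAD, 448 for PPOX, 279 for CPOX and 55.3 for FECH, with UROD and ALAD in reverse order. The scale depends on the transcript taken as the length: with the exons of all transcripts merged, ALAS1 was again first at 909.6 and FECH last at 40.9, but UROS moved from the second place to the sixth at 115, because its merged exons span 9505 bases and its canonical ones 1336.

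**Figure D3:**
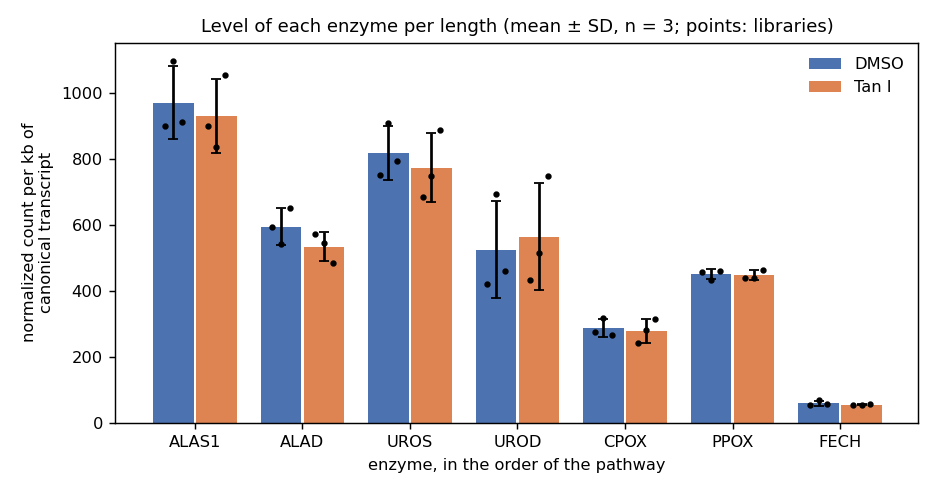
Level of each enzyme per kb of canonical transcript (bars from 0: group mean, error bars: SD, points: libraries, n = 3 a group), in pathway order along the horizontal axis. ALAS1 and UROS are the highest, FECH is the lowest at 59.2 in DMSO, and the DMSO and Tan I bars of each enzyme overlap in their points.

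Transcripts for the first step were almost wholly those of the housekeeping gene. ALAS2, the erythroid form, was at 51.3, 15.4 and 31.3 normalized counts in DMSO and at 28.3, 17.9 and 10.7 in Tan I, which per kb was 16.8 ± 9.27 and 9.78 ± 4.58 (SD, n = 3 each) beside 971 and 931 for ALAS1. The groups overlapped and ALAS2 was not called in limma. Ratios between successive enzymes were formed within each library, a choice made after the values had been seen. The groups overlapped for all 6 of these ratios. The ratio of ALAD to ALAS1, for example, was 0.868, 0.649 and 0.941 in DMSO and 0.837, 0.862 and 0.607 in Tan I. It was lowest in DMSO 2 and Tan I 3, one library of each group.

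Genes around the pathway were taken as 6 lists: supply of the substrates, transport of porphyrins, heme and iron, assembly of iron-sulfur clusters, breakdown of heme, regulators, and heme attachment with heme proteins. Of their 66 genes 65 had a row and were tested, and limma called 3 higher and 2 lower without adjustment, beside 2.42% of all genes, and 0 after adjustment. After adjustment DESeq2 called 4 of them, beside 16 of all 16887 genes. Limma with the score on the main axis of variation as a further term also called 4, beside 194 of all genes. The lists were chosen with earlier results of these data known, so that no more is read from these counts. Of the 65 genes, 47 had a positive log2 fold change, while 50.3% of all genes tested had a negative one. Signs of genes that move together across libraries are not separate results, and whether these follow the main axis of variation was not tested.

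Among the 6 genes that supply glycine and succinyl-CoA, 0 were called, with differences from -0.01 to 0.09. SHMT2, the mitochondrial enzyme that makes glycine from serine and the most abundant of them, was at 11077, 15441 and 12863 normalized counts in DMSO and at 11344, 13518 and 17371 in Tan I. It too was highest in DMSO 2 and Tan I 3.

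Among the 14 transport genes, ABCG2 was called higher without adjustment and 0 were called lower. ABCG2 is an exporter at the cell membrane that carries porphyrins and many drugs. It was at 10.3, 14.4 and 14.8 normalized counts in DMSO and at 28.3, 20.0 and 40.0 in Tan I, all Tan I values above all DMSO values, but on few reads: 11, 15 and 19 in DMSO and 29, 19 and 30 in Tan I. Its log2 fold change in limma was 1.07 (SE 0.37, unadjusted p = 0.0216, adjusted p = 0.999), and it was called without adjustment in 14 of the 16 alternatives that tested it, all but those without DMSO 1 or without Tan I 3. No alternative that gave it an adjusted p called it, and DESeq2 gave none. SLC25A37, the mitochondrial iron carrier mitoferrin and the most abundant gene of the list, had a log2 fold change of -0.04 (SE 0.19).

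All 15 genes of iron-sulfur cluster assembly, a pathway that shares the mitochondrial iron with FECH, were tested. None was called, 14 had positive log2 fold changes and their median was 0.15. Their summed normalized counts overlapped between the groups, from 17211 to 24249 in DMSO and from 18317 to 25637 in Tan I. HSPA9, a mitochondrial chaperone and the most abundant of them, was at 8744, 12618 and 9426 in DMSO and at 9536, 10419 and 12464 in Tan I, with the groups overlapping. It too was highest in DMSO 2 and Tan I 3.

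The 4 genes that break heme down gave 0 calls, all with positive log2 fold changes and a median of 0.17. Their summed normalized counts overlapped between the groups, from 1340 to 2126 in DMSO and from 1371 to 2532 in Tan I. Each of the 4 had its highest 2 values in DMSO 2 and Tan I 3, one library of each group. Their shared sign is therefore not 4 separate results. HMOX1, the inducible heme oxygenase, was at 49.4, 63.6 and 45.3 normalized counts in DMSO and at 51.8, 59.0 and 120 in Tan I. Tan I 3 alone stood high, and the log2 fold change was 0.45 (SE 0.35). HMOX2, the constitutive form and the most abundant of the 4, had a log2 fold change of 0.19 (SE 0.31).

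Among 14 regulators of heme synthesis 13 had a row, 0 were called and their median was -0.02. LONP1, the mitochondrial protease that degrades ALAS1 protein when heme is plentiful, was the most abundant, with a log2 fold change of 0.15 (SE 0.14). BACH1, the repressor that heme releases from DNA, was at -0.10 (SE 0.14), NFE2L2, the activator of the antioxidant response, at 0.11 (SE 0.11), NRF1 at -0.06 (SE 0.12) and the erythroid factor GATA1 at 0.08 (SE 0.21), all log2 fold changes that limma did not call. These 4 were named after their values were seen, because their motifs or roles are described with the promoters.

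**Figure D4:**
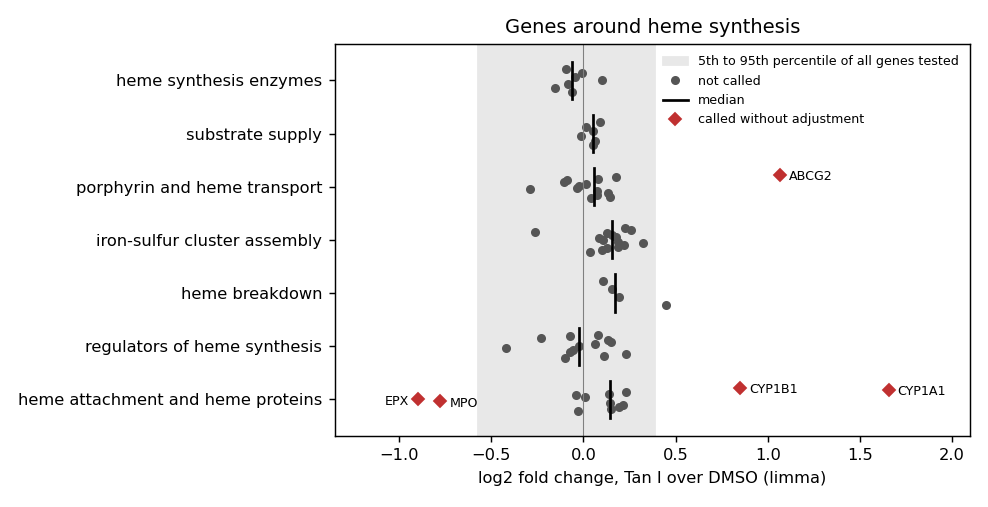
Log2 fold change of every gene tested, Tan I over DMSO (horizontal axis), for the enzymes and the 6 related lists (rows), with the median of each list as a vertical bar and the 5th to 95th percentile of all genes, -0.57 to 0.39, as a grey band. The enzymes lie inside the band, and the 5 genes called without adjustment, drawn as diamonds, are ABCG2 and 4 heme proteins.

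Of 13 genes of heme attachment and heme proteins, limma called 2 higher and 2 lower without adjustment, beside 1.32% and 1.1% of all genes, with a median log2 fold change of 0.14. The list was chosen with earlier results known, so that no more is read from this count. MPO, at 60389, 64107 and 63267 normalized counts in DMSO, was at 33279, 39450 and 37076 in Tan I. Every Tan I library lay far below every DMSO library, and the log2 fold change in limma was -0.78 (SE 0.15, unadjusted p = 0.000988). EPX, eosinophil peroxidase, a related heme enzyme of granules, was at 2568, 2904 and 2712 in DMSO and at 1264, 1533 and 1614 in Tan I, with a log2 fold change in limma of -0.90 (SE 0.13, unadjusted p = 0.000177). In bulk RNA, fewer cells of a type and less RNA per cell cannot be told apart.

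The 2 genes called higher were cytochromes P450, membrane enzymes with a heme at the active site that are classical targets of the aryl hydrocarbon receptor. CYP1A1 was at 1075, 1792 and 1250.2 in DMSO and at 3590.1, 3821 and 5498 in Tan I, a log2 fold change of 1.66 (SE 0.23). CYP1B1 was at 2474, 3459 and 2385 in DMSO and at 4789, 4518 and 5541 in Tan I, a log2 fold change of 0.85 (SE 0.17). For both, all Tan I values lay above all DMSO values. MPO, EPX, CYP1A1 and CYP1B1 missed the adjusted threshold in limma, and were called after adjustment in 2 of 17 alternatives each, DESeq2 and the principal component as a covariate. The study itself singled out ABCG2 from these libraries, so that its appearance here is not independent evidence. Catalase (CAT, -0.04, SE 0.11) and cytochrome c (CYCS, 0.21, SE 0.19), heme proteins of all cells that were named after their values were seen, were not called.

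**Figure D5:**
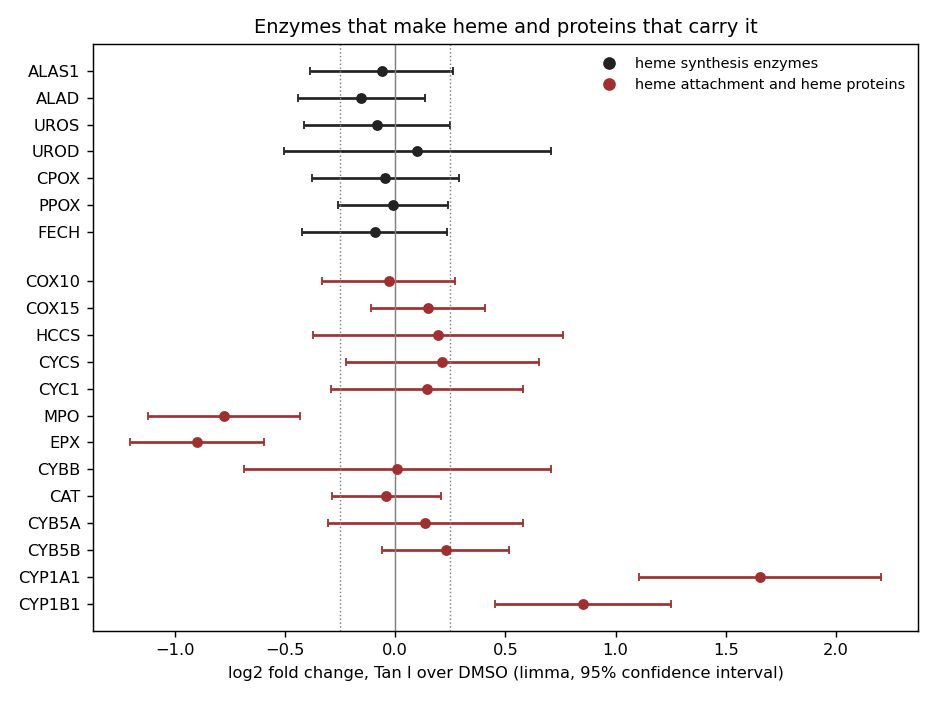
Log2 fold change of each gene, Tan I over DMSO, with its 95% confidence interval from limma (horizontal axis), for the 7 enzymes and the 13 genes of heme attachment and heme proteins, with dotted lines at 0.25 in each direction. The intervals of all enzymes include 0, while those of MPO, EPX, CYP1A1 and CYP1B1 do not.

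The enzymes and the peroxidases were set against each other inside each library, again after the values had been seen, since such a ratio does not depend on the size factor. MPO reads per ALAS1 read were 28.2, 24.6 and 29.2 in DMSO and 15.6, 19.9 and 14.8 in Tan I. The same held for every enzyme: the 3 Tan I ratios lay below the 3 DMSO ratios for 7 of 7, with log2 differences of -0.88 to -0.62, each with p = 0.1 in the exact two-sided permutation test, the smallest that it can give here. EPX per ALAS1 was 1.20, 1.11 and 1.25 in DMSO and 0.591, 0.772 and 0.644 in Tan I. The 7 ratios share MPO, whose own log2 fold change was -0.78, and are not separate results. A ratio of MPO to any gene of little change would also be lower in Tan I. The ratios therefore show nothing particular to the enzymes, and how many other genes would give the same was not counted. Summed over the enzymes, normalized counts were 7461 to 8485 in DMSO and 7184 to 8210 in Tan I, while the 13 heme protein genes, most of which is MPO, summed to 85828 to 95027 and to 62603 to 76893.

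For each enzyme the gene with the most similar course over the 6 libraries was found among the 12614 genes averaging 50 or more, as the smallest root mean square difference of the centred log2 values. These were VPS35 for ALAS1 (0.0216), SF1 for ALAD (0.0302), ZNF330 for UROS (0.0265), ABT1 for UROD (0.0308), RPL5P23 for CPOX (0.0159), PRKAR1A for PPOX (0.00931) and SLC39A6 for FECH (0.0200). Each enzyme had a different nearest gene, none from the heme lists. Each match is the best of 12614 genes on only 6 values, and few of those genes are in the heme lists. For PPOX the median difference over these genes was 0.214, and its own root mean square deviation from its mean was only 0.0388. Nothing about shared regulation is read from these matches, for or against. RPL5P23 is named as a pseudogene of a ribosomal protein gene, whose reads may be shared with near-identical copies.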

How the data were processed

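Total RNA of NB4 cells was sequenced in 6 libraries, 3 with DMSO and 3 with Tan I, grouped by their labels. Per the methods, the authors used STAR for alignment (paired ends, GRCh38), dropped multi-mapped reads, counted genes with featureCounts and normalized with DESeq2. Versions, annotation release and strand setting are not given in the sources used here. The deposited signal values are counts per gene divided by the library's size factor, and 100% were whole multiples of 1 read within 0.01 reads, so that reads were recovered. The table also holds the authors' mean signal, and their log2 fold change, its error, test score and p-values for the comparison, which were not used.

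The test covered the 16887 genes whose mean over libraries reached 10 (1738 did not) and used limma 3.58.1 in R 4.3.3 (lmFit, eBayes with trend) on log2(normalized count + 1) with no term but treatment and Benjamini-Hochberg adjustment. A gene was called at p of at most 0.05 with a log2 fold change of at least 0.25 in size, the thresholds of the study. edgeR 4.0.16 and DESeq2 1.42.0 on recovered reads were alternatives, with other pseudocounts, filters, scalings, covariates and each library left out. The fits were tested on simulated data. Lengths, positions and overlaps came from GENCODE release 44, which held 99.6% of the identifiers.

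The members and lists were chosen with earlier results of these data known. Named were the 7 enzymes, in each other list the genes called without adjustment (at most 3 a direction, by smallest p) and the gene of highest mean, and for each enzyme the gene of nearest profile. ALAS2, HMOX1, HECTD3, B4GALT3, PRTN3, AZU1, CD33, CEBPE and GP1BA were named outside this rule with their values in view, as were the genes marked so in the text.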

Additional observations from a re-analysis of the deposited data

How the results depend on the processing

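The 7 enzymes gave 0 calls under all 17 alternatives and with a log2 fold threshold of 0.5. Of 119 recomputed enzyme differences, 107 kept their direction and their side of the threshold and 12 changed sign without a call, in a range from -0.22 to 0.32. The sign changes were UROD at -0.061 with the score on the main axis of variation as a covariate, and the others arose when single libraries were left out: the differences then ran from -0.16 to 0.030 for ALAS1, -0.12 to 0.32 for UROD, -0.13 to 0.052 for CPOX, -0.037 to 0.0071 for PPOX and -0.17 to 0.0089 for FECH. The median over the enzymes ran from -0.12 to 0.01 in those fits, and was -0.12 with libraries rescaled to the same total, where the median of all genes was -0.06. Counts over all genes moved most, and the cause was not tested. From 408 genes called without adjustment, leaving out a library gave 160 (without Tan I 2) to 1496 (without Tan I 1), with 180 without DMSO 1, 201 without DMSO 3 and 271 without Tan I 3. The principal component as a covariate gave 1496, and 194 after adjustment, DESeq2 gave 16 after adjustment, with no adjusted p for 3602 genes, and the log2 fold threshold of 0.5 gave 232. In the related lists the 5 calls became 4 to 9 when a library was left out, the 9 without Tan I 1, where 1496 of all genes were called. After adjustment 4 were called both in DESeq2 and with the covariate, beside 16 and 194 of all genes. Levels per kb of merged exons were 377 for ALAD, 115 for UROS, 156 for UROD, 246 for CPOX, 165 for PPOX and 40.9 for FECH, and the Tan I mean of ALAD per kb was 535. Deviations of same-numbered libraries from their group means correlated at 0.75, -0.09 and -0.45 across genes, and not every library correlated best with its own number. The main axis of variation, with 70.8% of the variance, weighs on these correlations. They therefore cannot decide whether libraries of the same number were handled together. On the recovered reads edgeR called 409 genes without adjustment and 0 after it, and DESeq2 called 420 without it. With the replicate block 348 genes, 5 related genes and 0 enzymes were called without adjustment and 0 genes after it. Depth limits the low genes most: ABCG2 rests on at most 30 reads a library, while FECH, the lowest enzyme, has at least 333.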

Other observations

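Among markers of other cell states, the 2 granule genes MPO and CTSG were called lower without adjustment out of 6 promyelocyte markers tested in limma, beside 1.1% of all genes. CTSG, the granule protease cathepsin G, was at 1536, 2392 and 1801 normalized counts in DMSO and at 839, 1263 and 1496 in Tan I, a log2 fold change of -0.69 (SE 0.25). It was called in 14 of 17 alternatives and lost the call without DMSO 2 (-0.51), without DMSO 3 (-0.72) or without Tan I 1 (-0.45). The other 4 tested markers, PRTN3, AZU1, CD33 and CEBPE, were not called. PRTN3 was at -0.32 (SE 0.24), AZU1 at -0.25 (SE 0.19) and CEBPE at -0.12 (SE 0.27) on the log2 scale. CD33, a myeloid surface receptor, was at 0.07 (SE 0.11), the only positive one of the tested markers. ITGA2B, the platelet integrin subunit, was called higher without adjustment in limma, beside 1.32% of all genes, with an adjusted p of 0.999. It went from 1060.2, 1127 and 1077 in DMSO to 1332, 1412 and 1418 in Tan I. GP1BA, the other of 2 megakaryocyte markers with a row, was not called, at 414, 136 and 348 in DMSO and at 402, 171 and 60.0 in Tan I. None of the 4 mature neutrophil markers and none of the 5 lymphocyte markers with a row was called in limma. The part of any cell state in the levels of the heme proteins was not tested.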
